A study of Drosophila melanogaster with 10 samples.

Results

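The step from 15 h to 25 h of the third larval instar was examined in wing imaginal discs of Drosophila melanogaster, sheets of larval epithelium from which the wing and the notum develop. Discs of the genotype yw were sampled at both times, counted in hours from the molt that ends the second instar, with n = 2 libraries at 25 h (25 h A and 25 h B) and n = 2 at 15 h (15 h A and 15 h B). The series holds 10 libraries of the same genotype, 2 at every time (6, 15, 25, 35 and 48 h), the last from wandering larvae. The labels give no other allele or treatment, and do not give the number of discs or larvae per library, their sex, or whether replicates came from separate cultures, so p-values measure only the spread between these libraries. Of the 13041 genes in the deposited table, 10453 reached a signal of 10 or more in 2 or more libraries and were compared. Signal is the read count of a gene divided by the size factor of its library.

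During the third instar the wing disc grows by cell division while Hedgehog, Decapentaplegic and Wingless signals set its axes. The proneural genes achaete and scute mark clusters of cells, from which Notch signalling selects single sensory organ precursors that switch on senseless. Around the middle of the instar a larva commits to metamorphosis, and ecdysone, the moulting hormone, starts the programmes of the late larva: glue production in salivary glands, storage protein production in the fat body, and the exchange of early for late identity factors such as Chinmo and Broad. Discs lie beside fat body, trachea, haemocytes and other larval tissues that can come along in a dissection.

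The libraries held 23724569 (25 h A) and 25244372 (25 h B) reads, against 28040176 (15 h A) and 24290363 (15 h B), within the series range of 16814685 to 38003104. One read equalled a signal of 1.40 and 1.03 at 25 h and of 1.28 and 1.07 at 15 h. The 25 h libraries were more alike than the 15 h libraries, with Spearman correlations of 0.979 and 0.870 across the genes tested. These are correlations over genes, which are no independent replicates. In 15 h A, 2296 genes were more than 2-fold higher than in 15 h B and 458 more than 2-fold lower. In 25 h A, 1006 genes were more than 2-fold higher than in 25 h B and 467 more than 2-fold lower. All 8 wing disc marker genes (vg, nub, ap, sd, rn, wg, tsh and hth) had reads in every library, and together took 0.126% and 0.167% of the reads of 25 h A and B, against 0.0823% and 0.166% of those of 15 h A and B. Genes of gut digestive enzymes took 0.0721% and 0.0255% at 25 h and 4.25% and 0.143% at 15 h, so the high gut share was that of 15 h A. For fat body genes these shares were 15.8% and 8.74% at 25 h and 0.308% and 1.80% at 15 h, so both 25 h libraries carried far more fat body transcripts than either 15 h library. These shares are given again beside the results they move with, and their part in those results was not tested. In bulk samples such as these, fewer cells of a type and less RNA per cell cannot be told apart.

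**Figure D1:**
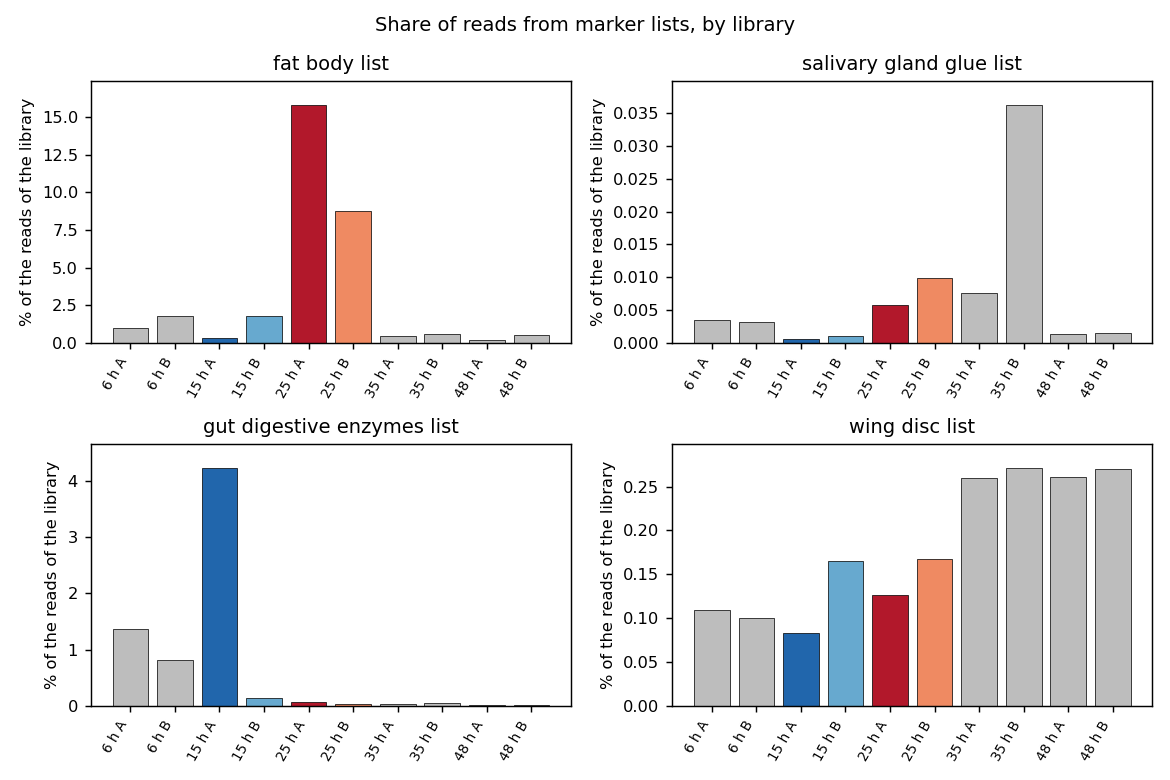
Share of the reads of each library (%, y axis, a separate linear scale per panel starting at 0) taken by the fat body, salivary gland glue, gut digestive enzyme and wing disc lists, for the 10 libraries from 6 h to 48 h on the x axis; the 25 h libraries are red and orange, the 15 h libraries dark and light blue. The fat body share was highest in the 25 h libraries, the gut share was highest in 15 h A, and the glue share was highest in 35 h B.

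Few genes separated the 2 times once the spread between replicates was taken into account. With all libraries, 13 genes were higher and 1 was lower at 25 h than at 15 h (limma on log2(signal + 1), two-sided, Benjamini-Hochberg adjusted p under 0.05), which is 0.134% of the genes tested (0.124% higher, 0.00957% lower). Against 15 h B alone, 6 genes were higher and 1 was lower (0.067%). sage, sens, sca and Hsp67Ba passed in both fits. The other 10 had adjusted p of 0.0561 to 0.0772 against 15 h B, and all 14 had both 25 h libraries on the same side of 15 h B as of 15 h A. An unadjusted p under 0.05 was reached by 1548 genes with all libraries and by 1649 against 15 h B alone. On reads recovered from the signal, edgeR's quasi-likelihood test called sage, sens and CG14302 (adjusted p 0.0157, 0.0208 and 0.0208), and DESeq2 called 383 genes higher (3.66%) and 787 lower (7.53%), all 14 among them. Without any model, 1828 genes (17.5%) had both 25 h libraries above both 15 h libraries, and 1946 (18.6%) had both below. Unadjusted and DESeq2 counts of list members given below are to be read beside these totals. For unadjusted p with all libraries the total was 1548 of the 10453 genes tested, and for DESeq2 it was 3.66% higher and 7.53% lower.

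The calls were sensitive to single libraries. None of the 14 passed when either library of 25 h or either library of 48 h was left out, which left 0, 3, 0 and 0 genes past the threshold. Without 6 h A or without 6 h B, sage and CG17105 were the 2 genes left. sage, sens, CG14302, CG43084, CG43139 and Tsp42Ep passed without 35 h A, and these genes other than Tsp42Ep without 35 h B. The highest adjusted p of a gene over these fits lay between 0.110 for sage and 0.198 for Tsp42Ep, and none of the 14 changed sign. Without 15 h B, with 15 h A as the lone 15 h library, 2185 genes were higher and 2721 lower. With 1 library at 15 h, that library is assumed to vary like the other times.

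**Figure D2:**
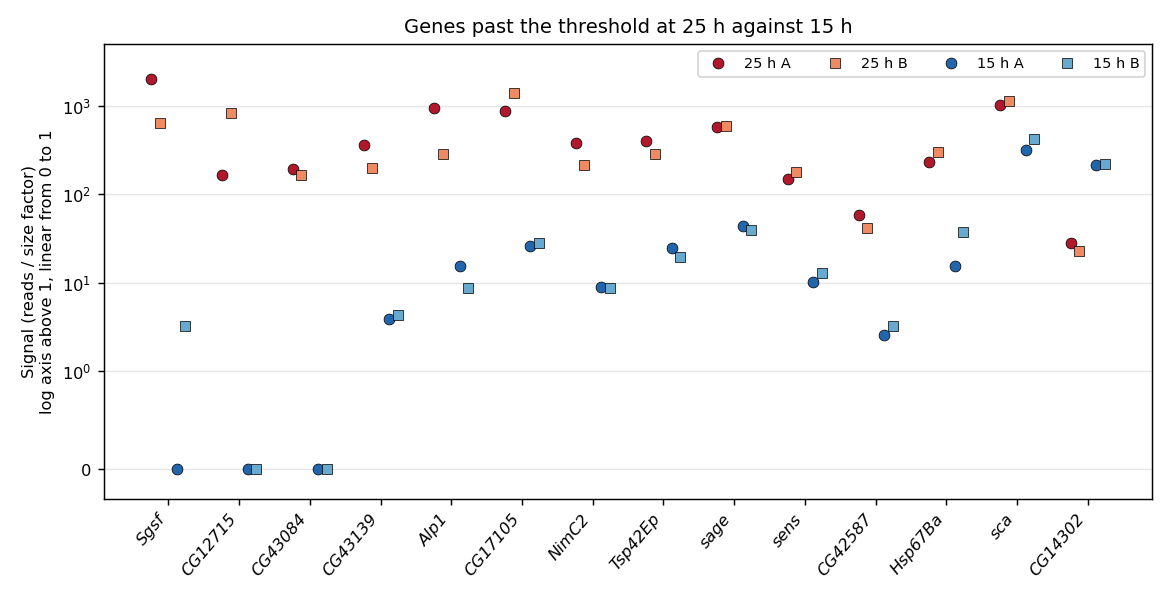
Signal (reads divided by the size factor; log axis above 1, linear from 0 to 1) of the 14 genes with a limma adjusted p under 0.05, in 25 h A and B (red circles, orange squares) and in 15 h A and B (dark blue circles, light blue squares). For 13 genes both 25 h libraries lie above both 15 h libraries, for CG14302 both lie below, and CG12715 and CG43084 sit at 0 in both 15 h libraries.

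Of the sensory organ pathway, sens and sca rose. sens (FBgn0002573, 3L 13396228 to 13401125, minus strand) encodes Senseless, a zinc finger factor that sensory organ precursors and wing margin cells need. Its signal was 147 and 177 in 25 h A and B, against 10.3 and 12.9 in 15 h A and B. The 15 h values rest on 8 and 12 reads, and the 25 h values on 105 and 171 reads. Each 25 h library was more than 10 times as high as either 15 h library, and sens rose by 3.70 on the log2(signal + 1) scale (SE 0.28, limma adjusted p 0.0202), and by 3.55 against 15 h B alone (adjusted p 0.0371). Its call held in 8 of 11 other settings, lost with quantile normalization, with array weights and in a fit of the 15 h and 25 h libraries alone. sca (FBgn0003326, on chromosome arm 2R) encodes Scabrous, a secreted protein of proneural clusters that acts with Notch in spacing sensory organs. Its signal was 1030.4 and 1135 at 25 h and 319.8 and 422 at 15 h, with no overlap. sca rose by 1.55 (SE 0.15, limma adjusted p 0.0263), and by 1.35 against 15 h B alone (adjusted p 0.0310). The call of sca was less steady, held in 4 of the 11 settings: it was lost in the settings that lost sens and with a common median, TMM factors, edgeR and a replicate block.

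The proneural genes upstream of sens had higher values at 25 h without passing the limma test. sc, the proneural gene scute, had 421 and 390.0 at 25 h and 128 and 153 at 15 h, a log2 difference of 1.53 (limma adjusted p 0.0611; 0.0772 against 15 h B alone; DESeq2 adjusted p 1.35e-10). ac, its neighbour achaete, had 257 and 257 at 25 h and 82.2 and 133 at 15 h (log2 1.29, limma adjusted p 0.148, DESeq2 adjusted p 7.33e-04). Against 15 h B alone the log2 change of ac was 0.94. In both genes every 25 h library was above every 15 h library, and both overlap a gene on the other strand. At 35 h sc (611 and 644) and ac (495 and 557) were higher still, while sens (46.97 and 59.3) was lower than at 25 h. neur and Brd had values that overlapped between the times. neur, which encodes a ubiquitin ligase that activates Notch ligands, had 371 and 393 at 25 h and 425 and 349 at 15 h, and Brd, a Notch pathway modulator of the Bearded family, had 517 and 509 at 25 h and 378 and 527 at 15 h. phyl, an adaptor for neural fate, was near the detection limit, at 12.6 and 19.7 at 25 h, from 9 and 19 reads, and 5.14 and 4.30 at 15 h, from 4 reads each; its libraries did not overlap either. Of the 10 list members tested, 2 passed as higher and 0 as lower (0.124% and 0.00957% of all genes), and 5 had higher and 0 lower, non-overlapping values (17.5% and 18.6% of all genes). An unadjusted limma p under 0.05 was reached by 4, and DESeq2 called 4 higher and 0 lower. Their median log2 change was 0.74 (0.66 against 15 h B alone), beside 0.006 over all genes tested (-0.006 against 15 h B).

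Direct Notch targets of the E(spl) complex did not pass the test. E(spl)m6-BFM, a Bearded family member, had 150.2 and 153 at 25 h and 32.1 and 75.2 at 15 h (log2 1.60, limma adjusted p 0.174). E(spl)malpha-BFM, of the same family, had 828 and 790.3 at 25 h and 279 and 519 at 15 h (log2 1.09, limma adjusted p 0.187). Both 25 h libraries exceeded both 15 h libraries for these genes, with 15 h A the lowest. E(spl)mgamma-HLH, a basic helix-loop-helix repressor, had 87.03 and 75.5 at 25 h and 78.3 and 178 at 15 h, with 25 h below 15 h B and around 15 h A. Of the 11 members tested, 5 had higher, non-overlapping values and 0 had lower ones (17.5% and 18.6% of all genes); an unadjusted limma p under 0.05 was reached by 3, and DESeq2 on recovered reads called 2 higher and 0 lower. The median of the complex depended on the 15 h library used, at 0.76 with both and 0.04 against 15 h B alone.

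Of the salivary gland glue list, which does not hold the called gene Sgsf described below, sage passed the test. sage (FBgn0037672, 3R 9262654 to 9264142, minus strand) encodes a basic helix-loop-helix factor known for its specific expression in the salivary gland. Its signal was 578 and 589.6 at 25 h and 43.7 and 39.8 at 15 h, from 412 and 570 reads against 34 and 37. Replicates lay close together at both times, and sage rose by 3.78 (SE 0.24, limma adjusted p 0.0108), and by 3.84 against 15 h B alone (adjusted p 0.0310), 14.7-fold over 15 h B. Senseless is also known as a survival factor of the embryonic salivary gland, so sens has known roles in both tissues.

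Glue genes, which encode the secretion that fixes the pupal case to its substrate, had reads at 25 h but varied widely between the 25 h libraries. Sgs7 had 135 and 1325 at 25 h and no reads in either 15 h library, an at least 206-fold higher mean at 25 h against a floor of 3 reads per library (log2 8.73, limma adjusted p 0.0647). Its neighbour Sgs8 had 21.1 and 245 at 25 h and 0 in both 15 h libraries (at least 37.6-fold higher, limma adjusted p 0.133). Both genes were about 10 times as high in 25 h B as in 25 h A, and neither passed. Sgs3 had 4.21 and 94.1, Sgs5 had 4.21 and 50.7 and Sgs1 had 0 and 38.3 in 25 h A and B, and in 15 h A and B they had 0 and 0, 0 and 0 and 1.28 and 0. The pre-glue genes ng1, ng2 and ng3, which are active in younger salivary glands, had the opposite replicate pattern: ng2 had 569 and 10.3 at 25 h and 61.6 and 60.2 at 15 h, and ng3 467 and 64.1 at 25 h and 71.9 and 81.7 at 15 h. 25 h A thus held more pre-glue and 25 h B more glue transcripts; ng1, ng2, ng3 and Sgs4 lie within the bounds of dnc. Of 10 members tested, sage alone passed (0.124% of all genes were called higher), 6 had higher, non-overlapping values (17.5% of all genes), and the median change was 3.91 (3.76 against 15 h B), or 3.37 with the 4 members without reads at 15 h set to their bound. An unadjusted limma p under 0.05 was reached by 6 of the 10, and DESeq2 on recovered reads called 6 higher and 0 lower. Together these genes made up 0.00574% and 0.00993% of the reads at 25 h and 6.21e-04% and 9.88e-04% at 15 h.

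Several called genes were near 0 at 15 h. Sgsf (FBgn0266261, 3R 12341674 to 12342373, plus strand) had 1996 and 631 at 25 h and 0 and 3.22 at 15 h, where it had 0 and 3 reads (log2 9.09, SE 0.94, limma adjusted p 0.0349; 0.0595 against 15 h B alone). CG12715 (FBgn0030443), which overlaps rsh on the other strand, had 164 and 836 at 25 h and 0 in both 15 h libraries, at least 141-fold higher (limma adjusted p 0.0263; 0.0595 against 15 h B alone). CG43084 (FBgn0262530) had 195 and 167 at 25 h and 0 in both 15 h libraries, at least 51.1-fold higher (limma adjusted p 0.0263; 0.0595 against 15 h B alone). Each of these genes had more than 100 reads in every 25 h library and 3 reads or fewer in every 15 h library. CG43139 (FBgn0262613) had 364 and 198 at 25 h and 3.85 and 4.30 at 15 h (log2 5.73, limma adjusted p 0.0263; 0.0595 against 15 h B alone). Alp1 (FBgn0283479), which encodes an alkaline phosphatase, had 941 and 284 at 25 h and 15.4 and 8.60 at 15 h (log2 5.37, limma adjusted p 0.0412; 0.0595 against 15 h B alone). All these genes rose in the fit of all libraries, and for each the change missed the threshold against 15 h B alone.

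The remaining called genes fell outside the naming rule and were added after their values were seen. CG17105 had 869 and 1407 at 25 h and 25.7 and 27.9 at 15 h (log2 5.32, limma adjusted p 0.0263; 0.0596 against 15 h B alone). NimC2, of the Nimrod family of haemocyte surface receptors, had 376 and 213 at 25 h and 8.99 and 8.60 at 15 h (log2 4.86, limma adjusted p 0.0385; 0.0687 against 15 h B alone). Tsp42Ep, a tetraspanin, had 404 and 282 at 25 h and 24.4 and 19.3 at 15 h (log2 3.90, limma adjusted p 0.0412; 0.0687 against 15 h B alone). CG42587 had 57.6 and 41.4 at 25 h and 2.57 and 3.22 at 15 h, from 2 and 3 reads at 15 h (limma adjusted p 0.0412; 0.0772 against 15 h B alone). Each of these had both 25 h libraries above both 15 h libraries. NimC2 is not in the haemocyte marker list, of whose members Hml, which encodes hemolectin, had 27157 and 26322 at 25 h and 27482 and 26699 at 15 h, and PPO1, a prophenoloxidase of crystal cells, had 26722 and 33259.5 at 25 h and 22328 and 24593 at 15 h. Over the 10 haemocyte markers the log2 change ran between -1.10 (crq) and 0.99, with a median of 0.13; 5 had higher and 2 lower, non-overlapping values (17.5% and 18.6% of all genes), PPO1 among the higher, and none passed (an unadjusted limma p under 0.05 was reached by 1, and DESeq2 on recovered reads called 0 higher and 0 lower).

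The 1 gene that fell in the fit of all libraries was CG14302 (FBgn0038647, 3R 18732681 to 18733034, plus strand). Its signal was 28.1 and 22.8 at 25 h and 216 and 220.3 at 15 h, so both 15 h libraries agreed and both 25 h libraries were far below them. CG14302 fell by 3.06 on the log2 scale (SE 0.26, limma adjusted p 0.0255), and its difference from 15 h B alone was -3.07 (adjusted p 0.0561), short of the threshold.

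Some genes passed against 15 h B alone and not with both 15 h libraries. CG11089 (FBgn0039241), the homologue of the purine synthesis enzyme ATIC, had 7885 and 7059 at 25 h and 2659 and 3891 at 15 h, and rose by 0.94 against 15 h B (limma adjusted p 0.0374; 0.0750 with all libraries). It overlaps CG31381 on the same strand. CG34227 (FBgn0085256) had 164 and 197 at 25 h and 1.28 and 8.60 at 15 h, and rose by 4.23 against 15 h B (limma adjusted p 0.0389; 0.0605 with all libraries). rpr (FBgn0011706), the cell death gene reaper, had 678 and 660.0 at 25 h and 669 and 1739 at 15 h. It matched 15 h A and was lower than 15 h B, by a log2 difference of -1.38 (limma adjusted p 0.0371), while the difference from both was -0.69 (adjusted p 0.424).

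**Figure D3:**
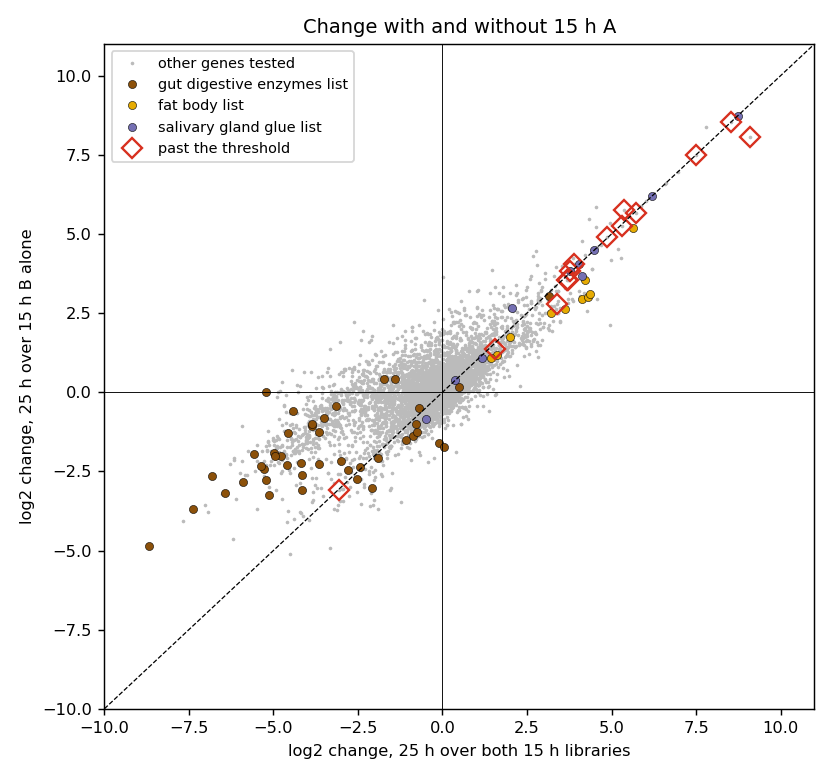
Log2 change of each of the 10453 genes tested at 25 h over both 15 h libraries (x axis) and over 15 h B alone (y axis); the dashed line marks equal values. Fat body (yellow), glue (violet) and gut (brown) genes are coloured, and red diamonds mark the 14 called genes, which lie near the line, while most gut genes lie well above it on the lower side.

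How far a change depended on 15 h A could be read over all genes. By the size of the mean change, 616 genes were at least 2-fold higher at 25 h, of which 485 were also at least 2-fold higher than 15 h B alone and 9 went the other way against it. On the lower side, 1329 genes were at least 2-fold lower at 25 h, of which 481 were also at least 2-fold lower than 15 h B and 340 went the other way. The lower side was therefore the less stable of the pair. Other genes kept their direction against 15 h B with a smaller change. Of these, epsilonTry, a digestive trypsin, had 94.1 and 60.00 at 25 h and 161638 and 989.9 at 15 h. betaTry, another trypsin, had 368 and 296 at 25 h and 165609 and 2364 at 15 h. Both were lower at 25 h than in either 15 h library, with 15 h A far above 15 h B (log2 against 15 h B -3.70 and -2.84, limma adjusted p 0.188 and 0.116). Of 43 gut genes tested, 28 had lower, non-overlapping values and 1 had higher ones (18.6% and 17.5% of all genes). Their median change was -3.86, and -2.01 against 15 h B alone, with 0 past the limma threshold in either fit; an unadjusted limma p under 0.05 was reached by 20, and DESeq2 on recovered reads called 1 higher and 25 lower. The trypsin genes are close paralogs, so reads can be split between them.

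Fat body genes held a far larger share of the transcripts at 25 h, although no single one passed. Lsp2, which encodes larval serum protein 2, an amino acid store taken up for metamorphosis, had 133508 and 47392 at 25 h and 1164 and 2178 at 15 h (log2 5.64, SE 0.77, limma adjusted p 0.0691; 0.106 against 15 h B alone). Lsp1alpha, Lsp1beta and Lsp1gamma, the subunits of larval serum protein 1, were also high in both 25 h libraries. Lsp1alpha had 871860.0 and 587933 at 25 h and 14845 and 89718 at 15 h, Lsp1beta 1661700.0 and 660332 at 25 h and 42167 and 168812 at 15 h, and Lsp1gamma 1826200.0 and 621226 at 25 h and 22035 and 123183 at 15 h. For all 4 storage protein genes 15 h A was the lowest of the 4 libraries and no values overlapped, with limma adjusted p of 0.181, 0.154 and 0.174 for the subunits of protein 1.

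Other fat body products showed the same order. Fbp2 had 64684 and 134467 at 25 h and 2359 and 12102 at 15 h (log2 4.13, limma adjusted p 0.137). Fbp1, the receptor through which the fat body takes storage proteins back up, had 1748 and 17567 at 25 h and 186 and 474 at 15 h, with 25 h B about 10 times as high as 25 h A. apolpp, which encodes the apolipoprotein of the lipid carrier lipophorin, had 688840.0 and 207327 at 25 h and 25062 and 67196 at 15 h (log2 3.20, limma adjusted p 0.199). Against 15 h B alone the log2 changes of Fbp2, Fbp1 and apolpp were 2.95, 3.54 and 2.49. Apoltp, of a second lipid carrier, had 14665 and 4268 at 25 h and 1926 and 3510.3 at 15 h, and Mtp, a lipid transfer protein that loads such carriers, had 6616 and 2502 at 25 h and 1188 and 1917 at 15 h. The log2 changes of Apoltp and Mtp against 15 h B alone were 1.17 and 1.09. Ilp6, the insulin-like peptide of the fat body, had 161 and 182 at 25 h and 35.96 and 50.5 at 15 h (log2 1.98, limma adjusted p 0.0647; 0.0772 against 15 h B alone). All 10 members had non-overlapping, higher values at 25 h, against 17.5% of all genes tested; an unadjusted limma p under 0.05 was reached by 10, and DESeq2 on recovered reads called 10 higher and 0 lower. Their median change was 3.88 with both 15 h libraries and 2.79 against 15 h B. Values at 6 h differed by gene. Apoltp had 16504 and 30157 at 6 h, above both 25 h libraries, and apolpp had 148048 and 317477, above both 15 h libraries. By comparison, Lsp2 (27.4 and 93.4) and Fbp2 (188 and 319) were lower at 6 h than at 15 h.

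Imaginal disc growth factors, secreted chitinase-like proteins made by the fat body and haemocytes among other tissues, were also mostly higher at 25 h. Idgf6 had 27592 and 13736 at 25 h and 6907 and 7136 at 15 h (log2 1.47, limma adjusted p 0.174). Idgf5 had 2437 and 805 at 25 h and 55.2 and 199 at 15 h (log2 3.72, limma adjusted p 0.175). Idgf4 had 20139.7 and 20163 at 25 h and 17071 and 8148 at 15 h (log2 0.77, limma adjusted p 0.349). Of the 6, Idgf3 overlapped and the other 5 were higher without overlap (17.5% of all genes), Idgf3 being at 3981 and 2078 at 25 h and 2304 and 1057 at 15 h. Idgf1 had 786 and 387 at 25 h and 190.1 and 339.6 at 15 h, and Idgf2 had 5233 and 2463 at 25 h and 1653 and 1495 at 15 h. None of the 6 passed; an unadjusted limma p under 0.05 was reached by 4, and DESeq2 on recovered reads called 3 higher and 0 lower. All 6 had a higher mean than 15 h B (49% of all genes did), with a median change of 1.38 against 15 h B and 1.15 against both. In 5 of the 6, Idgf4 aside, 25 h A was well above 25 h B, and the fat body share of reads was higher in 25 h A as well; the part of fat body RNA in these values was not tested.

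**Figure D4:**
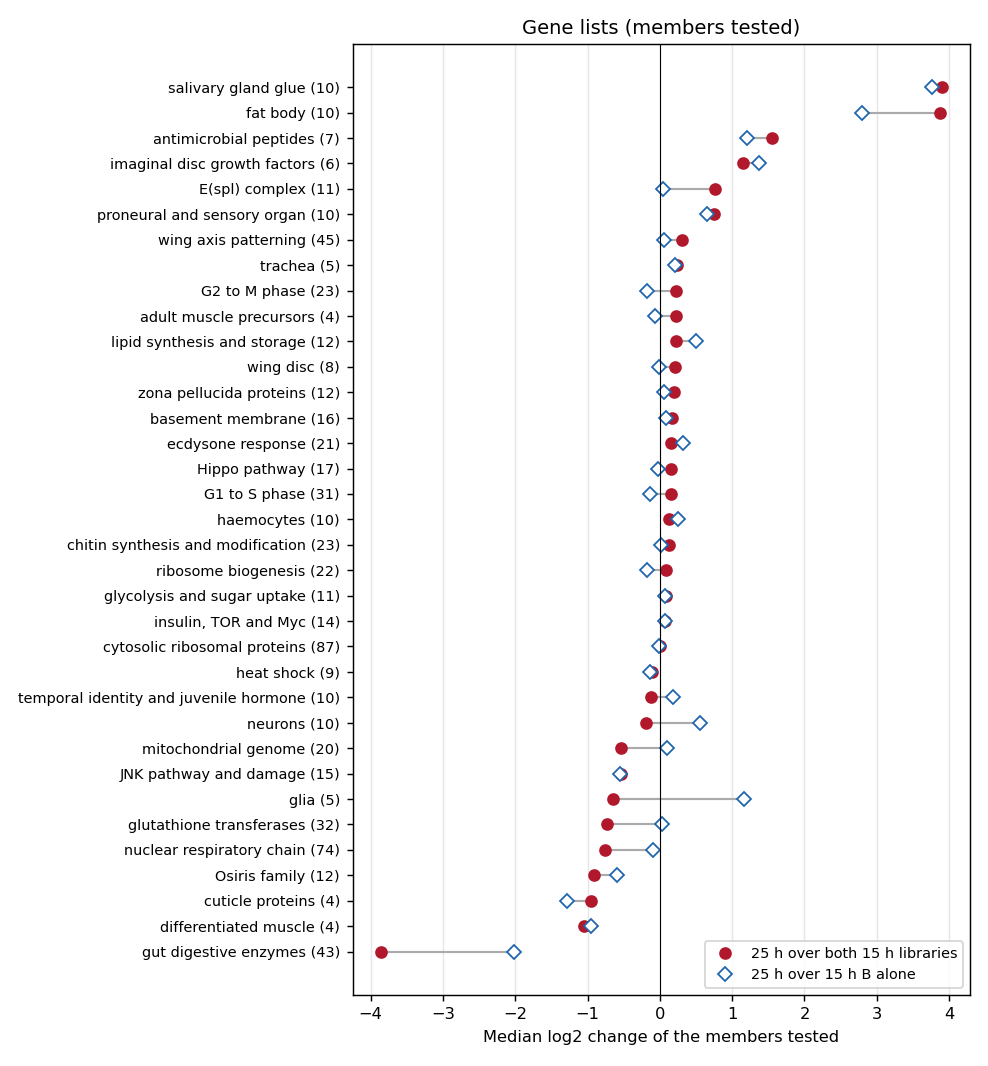
Median log2 change of the tested members of 35 gene lists (number of members in parentheses), at 25 h over both 15 h libraries (filled red circles) and over 15 h B alone (open blue diamonds). Glue and fat body lists lie highest and the gut list lowest; the diamond and circle are farthest apart for gut, glia and fat body genes, followed by glutathione transferase, neuron and E(spl) complex genes.

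Small heat shock genes of the cluster on chromosome arm 3L contributed 1 called gene. Hsp67Ba (FBgn0001227, 3L 9377802 to 9379534, minus strand) had 230.2 and 300.0 at 25 h and 15.4 and 37.6 at 15 h. It rose by 3.39 (SE 0.39, limma adjusted p 0.0430), and by 2.77 against 15 h B alone (adjusted p 0.0310); an annotated antisense gene, asRNA:CR43481, overlaps it. The call of Hsp67Ba held in 2 of 11 other settings, a pseudocount of 5 and DESeq2. It was lost with no filter, a filter at 50, quantile normalization, a common median, TMM factors, edgeR, array weights, a replicate block and the 15 h and 25 h libraries alone. In Hsp67Ba and in its neighbours Hsp23, Hsp26 and Hsp27, 15 h B was above 15 h A, by the most in Hsp23 and Hsp26. Hsp23 had 4851 and 6945 at 25 h and 611 and 6088 at 15 h, and Hsp26 had 772 and 813 at 25 h and 271 and 3325 at 15 h. Both encode small chaperones, and in both 15 h B was at least 9 times as high as 15 h A, so the direction of Hsp26 depended on the 15 h library. Hsp27, another small chaperone, had 6189 and 7243 at 25 h and 1914 and 4944 at 15 h (log2 1.12, limma adjusted p 0.286). The log2 change of Hsp27 against 15 h B alone was 0.44. Of 9 heat shock genes tested, 1 passed (0.134% of all genes), and their median change was -0.10 (-0.14 against 15 h B), which was 0.14 under quantile normalization, where the median of all genes was 0.18.

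Genes of developmental timing gave no call at this step. br, which encodes the Broad factors of late larval identity, had 10715 and 12425 at 25 h and 5529 and 8250.2 at 15 h (log2 0.77, limma adjusted p 0.225; against 15 h B alone 0.48, 0.264). Syp, an RNA-binding protein of late neural precursors, had 21821 and 21839 at 25 h and 11857 and 14144 at 15 h (log2 0.75, limma adjusted p 0.162). For br and Syp both 25 h libraries were above both 15 h libraries, and Syp rose by 0.63 against 15 h B alone. chinmo, a factor of early larval identity, had 7513 and 7055 at 25 h and 7801 and 11967 at 15 h, a log2 difference of -0.41 (limma adjusted p 0.362) that was larger against 15 h B alone (-0.72, adjusted p 0.0595). Imp, an RNA-binding protein of young neural precursors, had 3637 and 3322 at 25 h and 3832 and 5357 at 15 h (log2 -0.38, limma adjusted p 0.394). Both of these had 25 h values below both 15 h values, and the log2 change of Imp against 15 h B alone was -0.62. Kr-h1, the juvenile hormone effector, had 926 and 1209 at 25 h and 551 and 867 at 15 h. Its log2 change was 0.61, and 0.29 against 15 h B alone. Of 10 temporal identity and juvenile hormone genes tested, 3 had higher and 3 lower, non-overlapping values (17.5% and 18.6% of all genes), and none passed in either fit; an unadjusted limma p under 0.05 was reached by 3, and DESeq2 on recovered reads called 2 higher and 0 lower.

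Ecdysone response genes did not pass either. EcR, the ecdysone receptor gene, had 7433 and 6944 at 25 h and 4359 and 6198 at 15 h (log2 0.47, limma adjusted p 0.281). Eip74EF, an early ecdysone-induced ETS factor, had 2674 and 3144 at 25 h and 1277 and 1931 at 15 h (log2 0.88, limma adjusted p 0.172). Hr38, a nuclear receptor that can pair with the ecdysone co-receptor, had 89.8 and 117 at 25 h and 245 and 206 at 15 h (log2 -1.13, limma adjusted p 0.270). Both 25 h libraries were above both 15 h libraries for EcR and Eip74EF and below them for Hr38. Of 21 members tested, 7 had higher and 1 had lower, non-overlapping values (17.5% and 18.6% of all genes); an unadjusted limma p under 0.05 was reached by 5, and DESeq2 on recovered reads called 2 higher and 0 lower. Their median change was 0.16 with both 15 h libraries and 0.32 against 15 h B, and 16 of the 21 had a higher mean than 15 h B (49% of all genes did).

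The comparison of wing patterning genes depended on the 15 h library used. Dll, the homeobox gene Distal-less, had 959 and 1099.6 at 25 h and 457 and 718 at 15 h (log2 0.84, limma adjusted p 0.244). ara, an Iroquois gene of the notum, had 1581 and 1743 at 25 h and 764 and 1120.0 at 15 h (log2 0.84, limma adjusted p 0.148; 0.101 against 15 h B alone). vg, the wing selector gene vestigial, had 2617 and 2795 at 25 h and 1339.5 and 2490.3 at 15 h, and hh, which encodes the ligand Hedgehog, had 1084 and 1088 at 25 h and 605 and 931 at 15 h. In all of these 15 h A was the lowest of the 4 libraries. Against 15 h B alone the log2 changes of Dll, ara, vg and hh were 0.52, 0.57, 0.12 and 0.22. wg, the ligand gene wingless, had 1516 and 1511 at 25 h and 1157 and 1570.3 at 15 h, and dpp, the ligand gene decapentaplegic, had 1877 and 2249 at 25 h and 1426 and 2542 at 15 h, so that 25 h lay between the 15 h libraries. Of 45 wing axis genes tested, 20 had higher and 3 lower, non-overlapping values (17.5% and 18.6% of all genes), and 0 passed with all libraries. An unadjusted limma p under 0.05 was reached by 11 (1548 of the 10453 genes tested). DESeq2 on recovered reads called 3 higher and 0 lower (3.66% and 7.53% of all genes). The median change was 0.30 with both 15 h libraries but 0.06 against 15 h B, and that of the 8 wing disc markers was 0.21 with both and -0.01 against 15 h B.

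Growth and division genes gave 0 calls in limma and edgeR. Myc, a driver of cell growth, had 3793 and 4246 at 25 h and 2229.6 and 3510.3 at 15 h (log2 0.52, limma adjusted p 0.383), and InR, the insulin receptor gene, had 2330.2 and 2843 at 25 h and 1383 and 1826 at 15 h (log2 0.70, limma adjusted p 0.230; DESeq2 adjusted p 0.0299). Against 15 h B alone the log2 changes of Myc and InR were 0.19 and 0.49. Thor, which encodes the translation repressor 4E-BP, had 1282 and 1562 at 25 h and 2075 and 1079 at 15 h, where 25 h lay between the 15 h libraries. Of 31 genes for the G1 to S phase, 3 had higher and 1 lower, non-overlapping values, below the shares of all genes (17.5% and 18.6%), and the median was 0.15 against both 15 h libraries and -0.13 against 15 h B. For 23 genes of the G2 to M phase these medians were 0.23 and -0.18, and for 22 ribosome biogenesis genes 0.09 and -0.17. A lower mean than 15 h B was found for 26 of the 31 G1 to S genes and 21 of the 23 G2 to M genes (50.9% of all genes). Of the G2 to M genes, 1 had higher and 0 had lower, non-overlapping values (17.5% and 18.6% of all genes). All 22 ribosome biogenesis genes had a lower mean than 15 h B (50.9% of all genes did), yet only 1 was below both 15 h libraries in both 25 h libraries (18.6% of all genes were). The sign of these division and biogenesis medians thus changed with the 15 h library. With all libraries, 15 h A included, an unadjusted limma p under 0.05 was reached by 2, 1 and 1 genes of these lists (1548 of the 10453 genes tested). DESeq2 called 1 gene of ribosome biogenesis, as lower (7.53% of all genes). Of 14 insulin, TOR and Myc genes, 4 had higher and 3 lower, non-overlapping values (17.5% and 18.6% of all genes), an unadjusted limma p under 0.05 was reached by 1, and DESeq2 called InR alone.

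Most genes of the Jun kinase pathway and of tissue damage were lower in value at 25 h. puc, a phosphatase induced by Jun kinase signalling, had 821 and 1059 at 25 h and 1825 and 1449.9 at 15 h (log2 -0.80, limma adjusted p 0.158). Jra, which encodes Drosophila Jun, had 1016 and 1180.3 at 25 h and 1621 and 1572 at 15 h (log2 -0.54, limma adjusted p 0.133), and kay, which encodes Fos, had 1969 and 2234 at 25 h and 2950.1 and 2784 at 15 h (log2 -0.45, limma adjusted p 0.259). All 3 genes had both 25 h libraries below both 15 h libraries, by similar amounts against 15 h B alone (-0.64, -0.52 and -0.41). Mmp1, a matrix metalloproteinase, had 809 and 1173 at 25 h and 2233 and 1960.5 at 15 h. Ets21C, an ETS factor of stressed epithelia, had 26.7 and 46.5 at 25 h and 66.8 and 227 at 15 h (log2 -1.78, limma adjusted p 0.279). Ilp8, the relaxin-like peptide by which damaged discs delay metamorphosis, had 14.04 and 33.1 at 25 h and 21.8 and 184 at 15 h, with 15 h B the highest. The cytokine genes upd2 and upd3 were low throughout, upd3 having 19.7 and 27.9 at 25 h and 35.96 and 50.5 at 15 h. The log2 changes of Mmp1, Ets21C, Ilp8 and upd3 against 15 h B alone were -1.01, -2.65, -3.03 and -1.08. Of 15 members tested, 8 had lower and 0 had higher, non-overlapping values (18.6% and 17.5% of all genes). None passed with all libraries (an unadjusted limma p under 0.05 was reached by 4, and DESeq2 on recovered reads called 0 higher and 3 lower), while rpr, described above, passed as lower against 15 h B. The median change was -0.54 with both 15 h libraries and -0.55 against 15 h B. The highest change of a member with both 15 h libraries was 0.45, and 12 of the 15 had a lower mean than 15 h B (50.9% of all genes did).

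Other tissues and metabolic groups described here gave 0 calls in limma and edgeR. The 4 muscle genes tested, of 13 listed, all had lower, non-overlapping values at 25 h (18.6% of all genes did): Act57B, a muscle actin, had 69786 and 59365 at 25 h and 112565 and 125583 at 15 h (log2 -0.89, limma adjusted p 0.333; an unadjusted limma p under 0.05 was reached by 2, and DESeq2 on recovered reads called 0 higher and 0 lower). The log2 change of Act57B against 15 h B alone was -0.96. Muscle genes took 0.239% and 0.257% of the reads at 25 h and 0.368% and 0.549% at 15 h. For 74 nuclear genes of the respiratory chain the median change was -0.76 with both 15 h libraries and -0.10 against 15 h B, and for 32 glutathione transferases it was -0.73 and 0.03. These groups were higher in 15 h A than in 15 h B, by a median log2 of 1.27 and 1.95, as were gut genes by 4.29; the part of gut RNA in their values was not tested. An unadjusted limma p under 0.05 was reached by 5 genes of each of these groups (1548 of the 10453 genes tested). DESeq2 called 0 higher and 1 lower respiratory chain gene and 1 higher and 11 lower glutathione transferases (3.66% higher and 7.53% lower of all genes). Of 12 lipid synthesis and storage genes, 11 had a higher mean than 15 h B (49% of all genes did). Their median change was 0.50 against 15 h B and 0.22 with both 15 h libraries. Together they took 1.06% of the reads in 25 h A, 0.404% in 25 h B, 0.730% in 15 h A and 0.489% in 15 h B. 25 h A thus held the highest of these shares and 25 h B the lowest. With all libraries an unadjusted limma p under 0.05 was reached by 4, and DESeq2 on recovered reads called 2 higher and 1 lower.

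The change from 15 h to 25 h was also tested against the change from 25 h to 35 h, as the difference between them. Both changes share the 25 h libraries, so a high value at 25 h raises the difference. The test asks whether these changes are equal, and cannot show by itself whether a change went on. The difference passed for 4 genes (0.0383%), 3 above and 1 below. sage had 177 and 248 at 35 h, below its 25 h values (change from 25 h to 35 h -1.47, limma adjusted p 0.0293); the step exceeded the next by 5.25 on the log2 scale (limma adjusted p 0.0451). sens had 46.97 and 59.3 at 35 h and 211 and 195 at 48 h, lower at 35 h than at 25 h and high again at 48 h (change from 25 h to 35 h -1.59, adjusted p 0.0360; step difference 5.29, adjusted p 0.0451). Irc, the immune-regulated catalase gene, had 2777 and 1502 at 25 h and 357 and 431 at 15 h, then 193 and 203 at 35 h (step difference 5.74, limma adjusted p 0.0451); its own change at 25 h did not pass (2.38, 0.0656). CG14302 had 69.8 and 96.7 at 35 h, above its 25 h values (step difference -4.72, adjusted p 0.0451). These calls also rested on single libraries: no gene passed when 25 h A, 35 h A or any library of 6 h or 48 h was left out, and 1 gene did without 35 h B. Without 15 h A 341 genes were above and 71 below, without 15 h B 753 and 1173, and without 25 h B 168 and 3.

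By contrast, sca and Hsp67Ba kept climbing in value, though neither change from 25 h to 35 h passed. These changes were 0.57 for sca and 1.46 for Hsp67Ba (limma adjusted p 0.0958 and 0.0946). The step difference of Hsp67Ba was 1.93 (limma adjusted p 0.403). sca had 191 and 173 at 6 h, 319.8 and 422 at 15 h, 1030.4 and 1135 at 25 h, 1554 and 1648 at 35 h, and lastly 2167 and 2024 at 48 h, with a step difference of 0.99 (limma adjusted p 0.213). Hsp67Ba had 5.99 and 6.67 at 6 h, 15.4 and 37.6 at 15 h, 230.2 and 300.0 at 25 h, 750.3 and 699 at 35 h, and lastly 1210.0 and 1252 at 48 h. In both genes each time lay above the one before in every library. Lsp2 had 1786 and 2695 at 35 h, below its 25 h values (limma adjusted p of the change from 25 h to 35 h 0.0267), and the fat body share of reads was 0.467% and 0.605% at 35 h. Sgs7 had 759.7 and 3414 at 35 h, in the range of its 25 h values or above it.

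**Figure D5:**
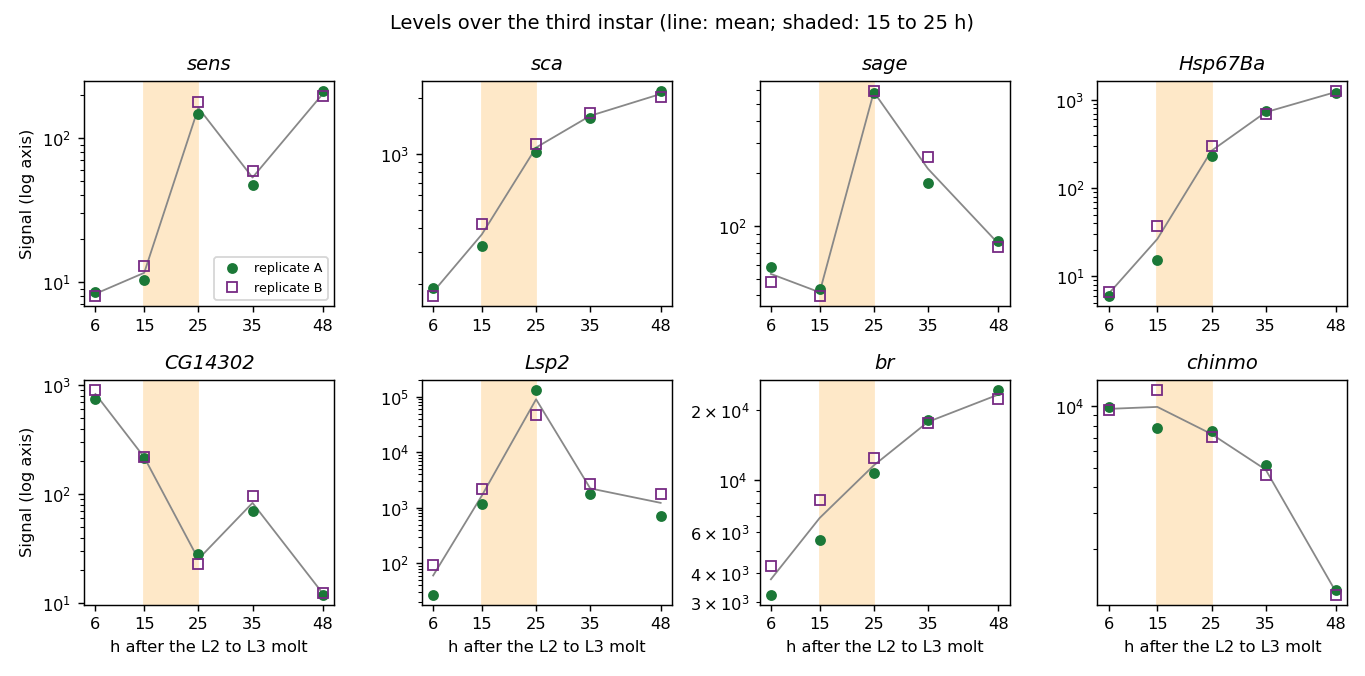
Signal (log axis, a separate scale per panel) of sens, sca, sage, Hsp67Ba, CG14302, Lsp2, br and chinmo at 6, 15, 25, 35 and 48 h after the molt, for replicate A (green circles) and replicate B (violet squares), with a line through the means; shading marks 15 h to 25 h. sens, sage and Lsp2 are higher at 25 h than at 35 h, CG14302 is lower at 25 h than at 35 h, and sca, Hsp67Ba and br climb through all times.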

How the data were processed

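RNA-seq libraries of wing discs were analysed from 1 table that the authors deposited, whose unit is signal: gene counts divided by 1 size factor per library. Per the submitters' processing notes, STAR 2.7.10a and featureCounts (no version given) were used, and the notes list dm6 and BDGP6 as builds. How strand was set in counting and which tool normalized the counts are not given in the sources used here, so overlapping genes can share reads. The labels name polyA RNA, whereas the protocol in the labels describes stranded total RNA depleted of ribosomal RNA. The signal of 1 read was found for each library, and after division by it 100% of the values were whole to within 0.001; these recovered reads entered the count tests. All 10 libraries were used, grouped by title, and 0 other columns of per-sample values were left aside. Coordinates are from the Ensembl BDGP6.54 annotation, and 41 genes had no match there.

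Genes reaching a signal of 10 in 2 or more libraries entered limma (version 3.58.1, R 4.3.3, trend on intensity) on log2(signal + 1), with a mean for each time and a spread that each gene shares over all 10 libraries (5 residual degrees of freedom), two-sided, with Benjamini-Hochberg adjustment over all genes tested and a threshold of 0.05. The fit was repeated on the 9 libraries without 15 h A (4 residual degrees of freedom). An exact permutation test of 2 against 2 libraries cannot go below p = 0.333. Alternatives were edgeR 4.0.16, DESeq2 1.42.0, other scalings, filters and pseudocounts, array weights, a replicate block and each library left out in turn; the scripts were tested on simulated data.

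Genes were named by rule: up to 10 per direction past the threshold in both fits with a mean signal of at least 100 at the higher time, up to 5 per direction past it in only 1 of them, those with a passing step difference, and members of 35 gene lists whose roles the text needs. The members and lists were chosen with earlier results of these data known. The letters A and B were not taken to pair the libraries: over 10 pairs of times, the deviations of A from B correlated between -0.0585 and 0.161, and 2 pairs exceeded 0.1. Such correlations cannot show whether libraries of the same letter shared a culture or batch. Reads carry no molecular identifiers, so the floor of 3 reads used for genes at 0 covers counting error only. Adding 1 before the logarithm understates changes of low genes. No sequence is printed.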

Additional observations from a re-analysis of the deposited data

How the results depend on the processing

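With limma on all 10 libraries, 13 genes were higher and 1 lower at 25 h than at 15 h, and the step to 25 h was above the next step for 3 genes and below it for 1. Higher and lower calls were 14 and 3 with a pseudocount of 5, 8 and 1 with no filter, 4 and 1 with a filter at 50 in 2 libraries, 8 and 0 when quantile-normalized, 11 and 1 with a common median, 12 and 1 with TMM factors, 2 and 1 by edgeR, and 383 and 787 by DESeq2 (406 genes without an adjusted p). They were 0 and 0 both with array weights and in a limma fit of the 4 libraries of 15 h and 25 h alone, where 442 and 481 genes had an unadjusted p under 0.05; the array weight of each 15 h library was 0.127, against 1.04 to 2.68 for the others. Step differences above and below were 31 and 1 with a pseudocount of 5, 0 and 0 with no filter, 1 and 0 with a filter at 50, 0 and 0 when quantile-normalized, 23 and 1 with a common median, 29 and 1 with TMM factors, 79 and 1 by edgeR, 409 and 59 by DESeq2, and 0 and 0 with array weights. A fit of 15 h and 25 h alone gives no step difference. Leaving out each library in turn gave 0 to 2185 higher, 0 to 2721 lower, 0 to 753 above and 0 to 1173 below. Leaving out 15 h B turned ab (0.29, against -0.09 with all; range -0.46 to 0.29) and Hsp26 (1.54, against -0.26 with all; range -2.07 to 1.54) in sign. The cause was not tested. With the replicate block, which the letters do not warrant, 4 genes were higher, 0 lower, 0 above and 0 below.

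Quantile normalization moved the median change of all genes by 0.17 and a common median moved it by 0.13. The medians of heat shock genes (0.14 and 0.03), neurons (0.05 when quantile-normalized) and temporal identity genes (0.01 with a common median) then turned positive, but stayed below the medians of all genes, 0.18 and 0.14. The median of cytosolic ribosomal proteins was 0.19 and 0.13. Over all genes, library A minus library B on the log2 scale had an SD of 0.872 for 25 h, against 1.66 for 15 h. Genes near 0 rest on a few reads, and the part of depth in the calls was not tested.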

Other observations

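Cuticle, Osiris, zona pellucida and antimicrobial peptide genes were not described above and gave 0 calls in limma and edgeR. The 4 larval and adult cuticle protein genes tested, of 11 listed, had a median change of -0.95 (-1.29 against 15 h B), 3 of them with lower, non-overlapping values (18.6% of all genes); 1 had an unadjusted limma p under 0.05 and DESeq2 called 1 lower. Their share of the reads was 0.00222% and 0.00338% at 25 h and 0.00802% and 0.0263% at 15 h, so 15 h B held the highest. Osiris genes, which encode transmembrane proteins of cuticle-forming cells, had a median of -0.91 (-0.59 against 15 h B) over 12 genes; an unadjusted limma p under 0.05 was reached by 3, and DESeq2 on recovered reads called 0 higher and 0 lower. Zona pellucida genes of the apical matrix went both ways, with 5 higher and 4 lower, non-overlapping genes of 12 (17.5% and 18.6% of all genes); an unadjusted limma p under 0.05 was reached by 6, and DESeq2 on recovered reads called 2 higher and 1 lower. Antimicrobial peptide genes, which the fat body and haemocytes express on infection, had a median of 1.55 (1.21 against 15 h B) over 7 genes, 3 with higher, non-overlapping values (17.5% of all genes); an unadjusted limma p under 0.05 was reached by 0, and DESeq2 on recovered reads called 0 higher and 0 lower.

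Glial and neuronal markers depended on the 15 h library. The 5 glial genes tested had a median of -0.65 with both 15 h libraries and 1.16 against 15 h B, and took 0.00591% and 0.0112% of the reads at 25 h and 0.0263% and 0.00468% at 15 h. The 10 neuronal genes had medians of -0.19 and 0.55. crq, a scavenger receptor gene of the haemocyte list, had 1631 and 1433 at 25 h and 9999.7 and 1075 at 15 h, with 15 h A far above the rest.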
